A study of Mus musculus with 2 samples.

Results

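The oligodendrocyte precursor genes Pdgfra, Cspg4, Olig1, Olig2, Sox10, Gpr17, C1ql1, Vcan, Ptprz1 and Lhfpl3 were followed through the cells of the murine dentate gyrus. These 10 genes, out of 15474 in the filtered counts, were chosen by name, and each was read by cell identity and condition to separate the genes that oligodendrocytes still expressed from those held mostly by oligodendrocyte precursor cells (OPCs). Cells were sorted into 384-well plates for SORT-seq, which counts unique molecular identifiers (UMIs), random tags that mark single mRNA molecules. The fresh plate was sorted, with a dead cell stain, from dentate gyri of 3 mice that were pooled right after dissociation. The MeOH-fixed plate was sorted, without that stain, from a pool of 4 mice whose cells had spent 3 weeks in methanol at low temperature. All mice were 4 to 5 weeks old C57BL/6J animals without a transgene or other treatment. Each condition is therefore 1 library of pooled animals, and fixation, pool and gating cannot be told apart.

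The fresh plate held 674286 UMIs in all and 534122 in 64 cells that passed the authors' filtering, and the MeOH-fixed plate held 812673 and 729018 in 132 cells. Of these 196 cells, the authors' annotation named 15 as OPCs (5 fresh, 10 MeOH-fixed) and 15 as oligodendrocytes (2 fresh, 13 MeOH-fixed). OPCs made up 7.81% of fresh and 7.58% of MeOH-fixed cells. Levels are given as CPM, the UMIs of a gene summed over the cells of an identity and divided by all their UMIs, scaled to a common total. Because there was 1 library per condition, no test was made, and all intervals are exact 95% intervals that cover counting error only. The identities came from a clustering of these same counts, so that levels by identity describe the annotation and do not test it. OPCs expressed all 10 genes on both plates, but for the same reason this is no separate check of the label. The paper names Olig1, Sox10 and Cspg4 as markers of its OPC cluster. The 10 oligodendrocyte markers from Mbp to Opalin took 92596 CPM in fresh and 90696 CPM in MeOH-fixed oligodendrocytes. In OPCs they took 22803 CPM when fresh, more than the 15242 CPM of the 10 precursor genes there, and 7119.6 CPM when MeOH-fixed. Of their 1149 UMIs in fresh OPCs, 1142 lay in 1 cell, number 288, so that this cell carried markers of both labels. The same cell held 50.2% of all UMIs of fresh OPCs, and cell 201 held 80.9% of those of the 2 fresh oligodendrocytes. Cells are named here by the number of their barcode on the plate.

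OPCs are the dividing glial cells that give rise to the myelin-forming oligodendrocytes of the brain, in the young animal and through adult life. Platelet-derived growth factor acts through its receptor PDGFRA to keep them dividing, while the transcription factors OLIG1, OLIG2 and SOX10 set up the lineage and remain in use as myelin genes are switched on. On the way to the oligodendrocyte, cells pass through a committed stage that is marked by the receptor GPR17.

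OPCs had the highest level of each of the 10 genes on each plate (20 of 20 pairs of gene and plate). On the fresh plate the intervals of OPCs and of the next identity overlapped for Cspg4, Sox10 and Ptprz1. Fresh Cspg4 was nearly level, at 536 CPM in OPCs and 515 CPM (247 to 948) in endothelial cells. Summed over the 10 genes, fresh OPCs had 15242 CPM (14183 to 16359) and MeOH-fixed OPCs 18078 CPM (16878 to 19340). Oligodendrocytes came next with 3373 CPM (2683 to 4187) and 3903 CPM (3507 to 4331), followed by astrocytes with radial glia-like cells at 1488 CPM and 1710 CPM. The other 5 identities lay between 43.1 CPM in fresh microglia and 636 CPM in MeOH-fixed neural progenitors and neuroblasts. Of all UMIs of these genes in filtered cells, OPCs held 71.0% (68.2 to 73.7%) when fresh and 57.5% (55.0 to 60.1%) when MeOH-fixed. Oligodendrocytes held 7.59% and 24.2%, on plates where they were 3.13% and 9.85% of the cells.

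**Figure D1:**
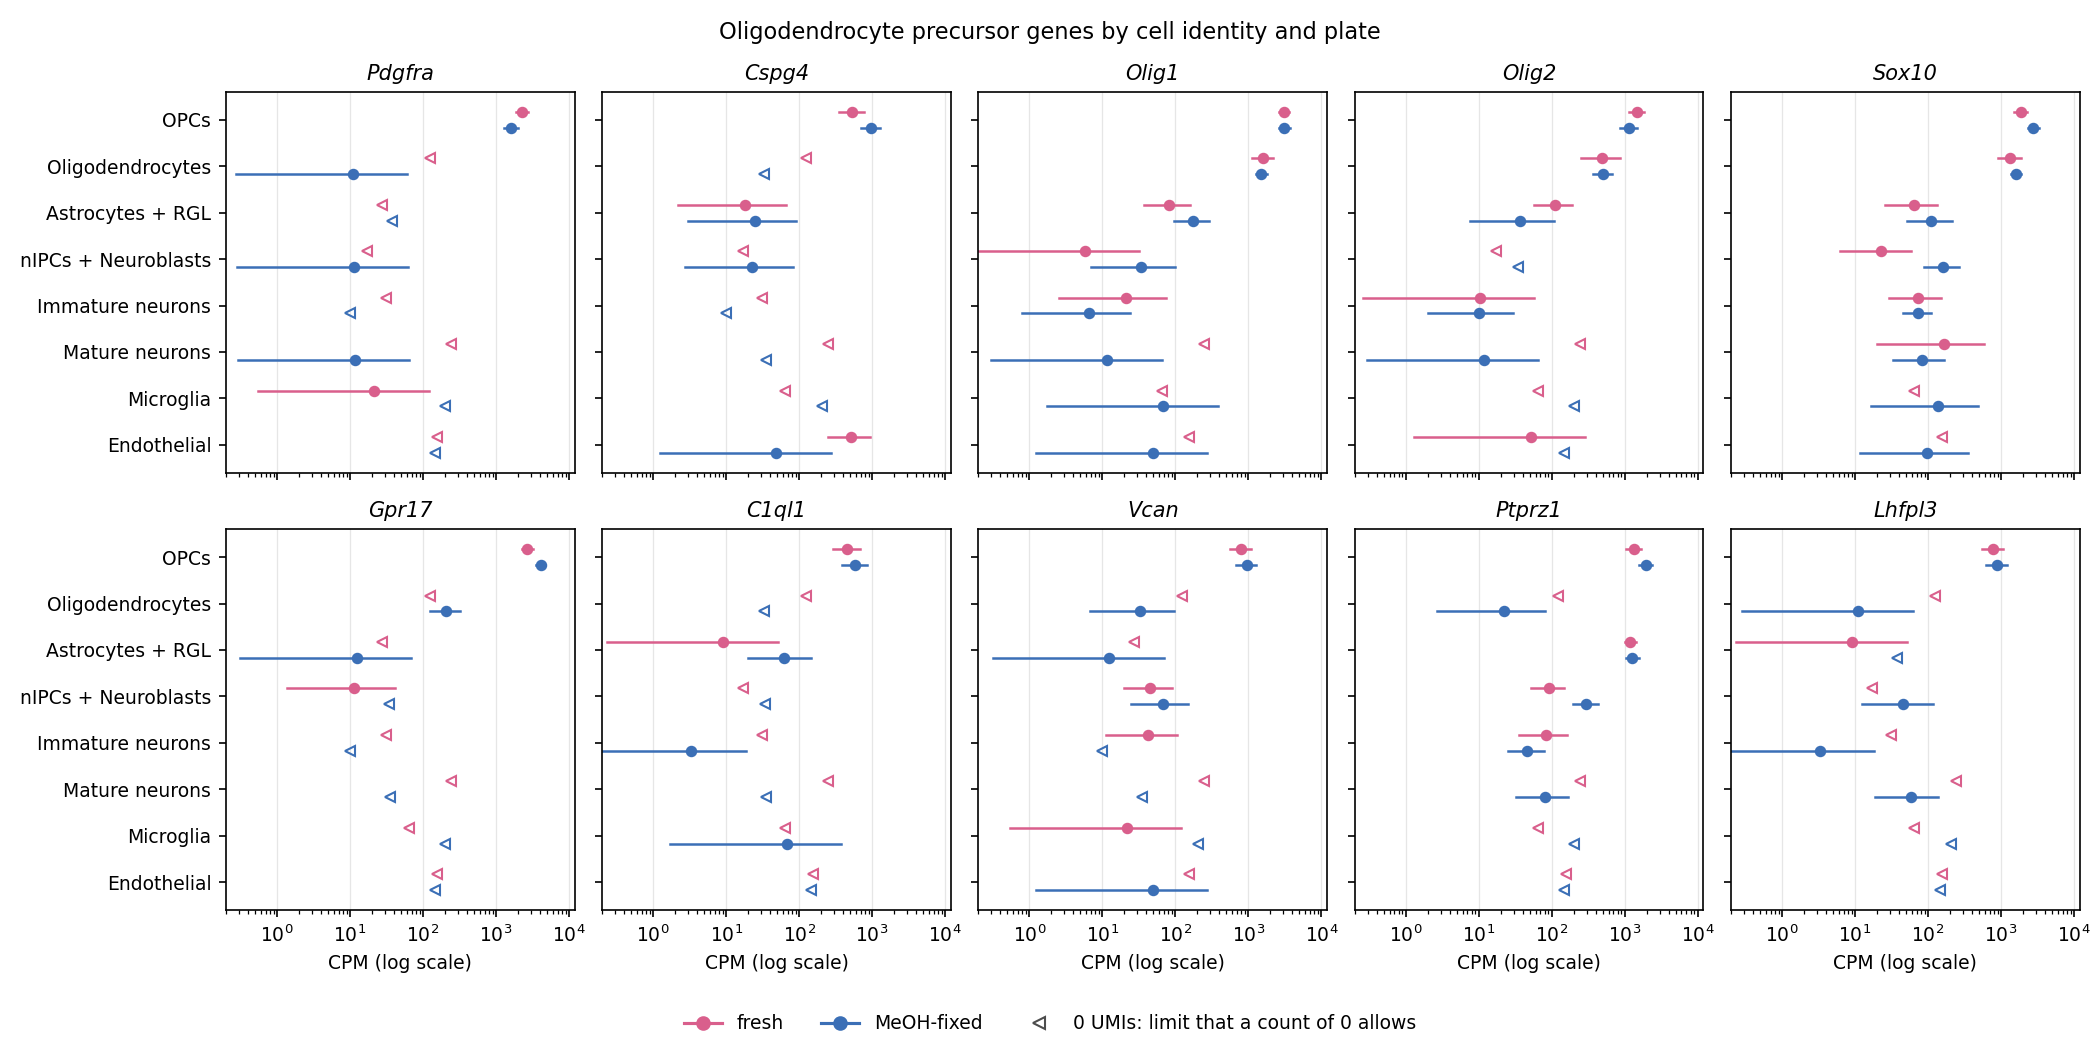
Level of each of the 10 genes (CPM, log scale) in the 8 cell identities of the fresh and the MeOH-fixed plate. Points are summed UMIs over summed totals with exact 95% Poisson intervals, and open triangles mark identities with 0 UMIs at the limit that a count of 0 allows (3 UMIs of the total). OPCs lie highest in all 10 panels on both plates, with intervals that overlap those of the next identity for fresh Cspg4, Sox10 and Ptprz1. Only Olig1, Olig2 and Sox10 have oligodendrocytes close behind.

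Of the 10 genes, Pdgfra and then Gpr17 had the highest shares of their UMIs in OPCs on both plates. Next came Lhfpl3 on the fresh plate (97.5%) and Cspg4 on the MeOH-fixed plate (90%), with intervals that overlapped that of Gpr17. Pdgfra, the receptor for platelet-derived growth factor (GRCm38 chromosome 5, 75152292 to 75198215, plus strand), was counted 114 times in the 5 fresh OPCs, with 12, 42, 0, 57 and 3 UMIs in cells 79, 153, 288, 303 and 362. In the 10 MeOH-fixed OPCs it was counted 76 times, with a median of 7.5 UMIs per cell and a range from 0 to 22. These counts gave 2262 CPM (1866 to 2718) in fresh and 1630 CPM (1284 to 2040) in MeOH-fixed OPCs. Outside OPCs, Pdgfra was counted 1 time in fresh cells, in microglia, and 3 times in MeOH-fixed cells, in an oligodendrocyte, a neuroblast or progenitor and a mature neuron. Of all its UMIs in filtered cells, 99.1% (95.3 to 100.0%) and 96.2% (89.3 to 99.2%) lay in OPCs.

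Gpr17, an orphan G protein-coupled receptor of the committed stage, reached 2699 CPM (2265 to 3193) in fresh and 4096 CPM (3536 to 4720) in MeOH-fixed OPCs. It was counted in all 15 OPCs, with 6, 22, 96, 8 and 4 UMIs in fresh cells 79, 153, 288, 303 and 362. In MeOH-fixed OPCs it ranged from 1 to 80 UMIs around a median of 4.5, and cells 198 and 199 held 80 and 60 of its 191 UMIs. The gene was thus present in every OPC, with most of its counts in a few cells. OPCs held 98.6% of its fresh and 90.5% of its MeOH-fixed UMIs, where 19 of 211 UMIs lay in oligodendrocytes. Gpr17 overlaps Lims2 on the opposite strand, and whether strand was used in counting is not given in the sources used here, so that counts of the pair cannot be fully separated.

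The transcription factors were shared with oligodendrocytes. Olig1, a basic helix-loop-helix factor (chromosome 16, 91269772 to 91271933, plus strand), had 3056 CPM (2593 to 3579) in fresh and 3109 CPM (2624 to 3659) in MeOH-fixed OPCs, and was counted in all 15 OPCs and all 15 oligodendrocytes. Olig2, its neighbour 41094 bases upstream (91225457 to 91228677, plus strand), had 1469 CPM (1153 to 1844) and 1137 CPM (851 to 1487) in OPCs. Sox10, an HMG-box factor that acts with both (chromosome 15, 79154908 to 79165240, minus strand), had 1866 CPM (1508 to 2283) and 2788 CPM (2329 to 3310).

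In fresh OPCs 79, 153, 288, 303 and 362, Olig1 was counted 25, 42, 33, 45 and 9 times. Olig2 was counted 13, 5, 29, 16 and 11 times in the same cells, and Sox10 7, 16, 56, 5 and 10 times. No fresh OPC was without any of the 3 factors, and the cell with the most UMIs in all, 288, was also the highest for Olig2 and Sox10. In MeOH-fixed OPCs, Olig1 ranged from 1 to 37 UMIs (median 12.5), Olig2 from 0 to 15 (median 4, in 8 of 10 cells) and Sox10 from 2 to 26 (median 11.5).

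The genes of the cell surface and matrix differed in how far they were shared with other cells. Cspg4, the NG2 proteoglycan (chromosome 9, 56865033 to 56899870, plus strand), was counted 0, 18, 0, 6 and 3 times in fresh OPCs 79, 153, 288, 303 and 362, or 536 CPM (353 to 780). In MeOH-fixed OPCs it was counted 45 times, or 965 CPM (704 to 1291), of which 26 UMIs came from cell 188. OPCs held 69.2% of its UMIs among fresh cells (52.4 to 83.0%) and 90% among MeOH-fixed cells (78.2 to 96.7%). All 10 UMIs of Cspg4 in fresh endothelial cells came from 1 cell, number 128, which also held 68 of the 74 UMIs that the 5 pericyte markers had in this group (Vtn 43, Pdgfrb 8, Kcnj8 7, Abcc9 6 and Rgs5 4). Of the endothelial markers it had 3 UMIs of Esam and none of Cldn5, Flt1, Pecam1, Prom1 or Ly6c1. Without this cell, chosen after its values were seen, 27 of 29 fresh Cspg4 UMIs (93.1%) lay in OPCs.

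Vcan, the matrix proteoglycan versican (chromosome 13, 89655312 to 89742509, minus strand), was counted 8, 11, 17, 2 and 2 times in fresh OPCs 79, 153, 288, 303 and 362, or 794 CPM (567 to 1081), and had 944 CPM (686 to 1267) in MeOH-fixed OPCs. OPCs held 75.5% and 80% of its UMIs, and progenitors with neuroblasts were second on both plates at 45.5 CPM and 68.1 CPM. Ptprz1, a receptor-type phosphatase that is itself a chondroitin sulfate proteoglycan (chromosome 6, 22875502 to 23052916, plus strand), was the least restricted of the 10 genes. It had 1330 CPM (1030 to 1689) in fresh OPCs and 1196 CPM (1000 to 1419) in fresh astrocytes with radial glia-like cells, whose intervals overlapped. On the MeOH-fixed plate the values were 1951 CPM (1571 to 2396) and 1276 CPM (1042 to 1548), whose intervals did not overlap. OPCs held 30.2% and 37.4% of its UMIs. Markers of astrocytes were counted 88 times in fresh OPCs (1746 CPM) and 76 times in MeOH-fixed OPCs (1630 CPM), against 27014 CPM and 27514 CPM in astrocytes. Of these UMIs in OPCs, 38 and 37 were of S100b, which was higher in OPCs (754 and 793 CPM) than in astrocytes (383 and 310 CPM). The next markers were Slc1a2 (26 and 16 UMIs) and Aldoc (14 and 15), while Aqp4 and Gja1 had 0. The part of RNA from astrocytes in the level of Ptprz1 in OPCs was not tested.

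C1ql1, a secreted protein of the C1q family (chromosome 11, 102939264 to 102946688, minus strand), had the fewest UMIs of the 10 genes. It was counted 4, 8, 0, 2 and 9 times in fresh OPCs 79, 153, 288, 303 and 362 (456 CPM, 289 to 685) and 27 times in 7 of the 10 MeOH-fixed OPCs (579 CPM, 382 to 842). Lhfpl3, a tetraspan membrane protein (chromosome 5, 22746059 to 23275597, plus strand), was counted 8, 15, 2, 5 and 9 times in the same fresh cells (774 CPM, 550 to 1058) and 41 times in 6 of the 10 MeOH-fixed OPCs (879 CPM, 631 to 1193). On the fresh plate each of the pair had 1 UMI outside OPCs, in an astrocyte or radial glia-like cell. On the MeOH-fixed plate C1ql1 had 7, of which 4 were in astrocyte-group cell 206, and Lhfpl3 had 11, of which 4 were in mature neuron 368. Both genes have antisense or other overlapping neighbours in the annotation (1 opposite C1ql1, 4 opposite Lhfpl3 and 2 on its strand).

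Outside OPCs and oligodendrocytes Ptprz1 was the gene most often counted, with 155 UMIs in 29 of 57 fresh cells and 150 UMIs in 42 of 109 MeOH-fixed cells, up to 17 and 19 in a cell. Most of these, 131 and 103 UMIs, lay in astrocytes with radial glia-like cells. Each of the other 9 genes had at most 20 UMIs in these fresh cells and at most 56 in these MeOH-fixed cells. Of the 57 fresh cells of the other identities, 18 had no UMI of any of them and 1 had 4 of the genes or more. Of the 109 MeOH-fixed cells, 31 had none and 3 had 4 or more. Sox10 was counted in 13 of 57 fresh cells (22.8%, 1.75% after each cell was thinned to 800 UMIs) and in 37 of 109 MeOH-fixed cells (33.9%, 11.9% after thinning), at median depths of 6228 and 3150 UMIs per cell. The level of Sox10 in these cells was 43.5 CPM and 94.6 CPM. Pdgfra and Gpr17 were counted in at most 2 of these cells on either plate. A single Sox10 UMI therefore did not separate cells of the lineage from the other cells, while a UMI of Pdgfra or Gpr17 was rare outside it.

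Oligodendrocytes were compared with OPCs within each plate, and a gene counted as kept where its CPM in oligodendrocytes was at least 0.25 of that in OPCs. By this rule 3 of the 10 genes, Olig1, Olig2 and Sox10, were kept on the MeOH-fixed plate, and the fresh plate gave the same 3. The other 7 genes were more than 4-fold lower in MeOH-fixed oligodendrocytes, where 7.8% of the 1192 genes with at least 20 UMIs over both identities were lower by as much. On the fresh plate these 7 had no UMI in the 24310 UMIs of the 2 oligodendrocytes, where 26.6% of 534 genes were more than 4-fold lower or at 0. The 10 genes had a median log2 ratio of -5.58 on the MeOH-fixed plate (-4.56 with genes at 0 set to their bound), against 0.17 over all genes. On the fresh plate the median was -2.38 with genes at 0 at their bound, against -0.23 over all genes. At a limit of 2-fold, 9 of the 10 genes were lower on the MeOH-fixed plate (17.4% of all genes) and 8 among fresh cells (38.2%), and 0 were higher (30% and 26.6%). The clustering was made from these same counts, so that the ratios are a description of the annotated groups.

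Among the kept genes, Olig1 was counted 4 and 34 times in fresh oligodendrocytes 82 and 201 and 3 to 27 times (median 8) in the 13 MeOH-fixed ones. Its level there was 1563 CPM (1106 to 2146) and 1499 CPM (1258 to 1773), a log2 ratio to OPCs of -0.97 (-1.52 to -0.45) and -1.05 (-1.40 to -0.70). Single cells of both identities overlapped, from 323 to 2360 CPM in MeOH-fixed oligodendrocytes and from 464 to 7790 CPM in MeOH-fixed OPCs. Olig2 was counted 0 and 12 times in fresh oligodendrocytes and in all 13 MeOH-fixed ones, at 494 CPM (255 to 862) and 507 CPM (371 to 676), with log2 ratios of -1.57 (-2.59 to -0.68) and -1.16 (-1.77 to -0.57). Sox10 was counted in all 15 oligodendrocytes, at 1316 CPM (900 to 1858) and 1610 CPM (1359 to 1893). Its log2 ratio was -0.50 on the fresh plate, with an interval that included 0 (-1.13 to 0.09). In MeOH-fixed cells it was -0.79 (-1.14 to -0.44). All 3 factors were thus lower in oligodendrocytes than in OPCs at the level of counting error, except fresh Sox10, and none was absent.

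**Figure D2:**
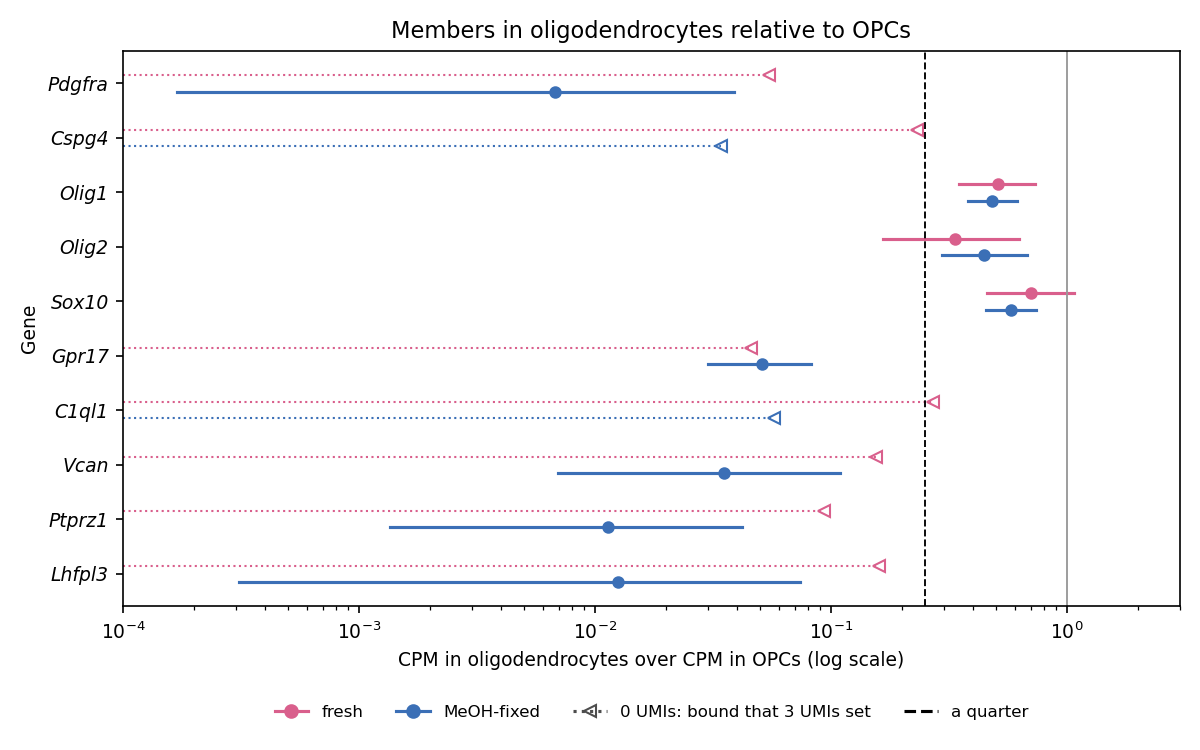
CPM in oligodendrocytes over CPM in OPCs (log scale) for the 10 genes on each plate, with exact 95% intervals of the ratio. Open triangles are the bounds that 3 UMIs set for genes with 0 UMIs in oligodendrocytes, and the dashed line marks 0.25. Olig1, Olig2 and Sox10 lie to the right of the dashed line on both plates, and each of the other 7 genes on the MeOH-fixed plate lies to its left.

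The 7 other genes reached 26 UMIs in 6 of the 13 MeOH-fixed oligodendrocytes, 17 of them in cell 246. Gpr17 had 19 UMIs (13 in cell 246, 4 in cell 228 and 1 each in cells 35 and 166) and was 19.6-fold lower than in OPCs (12.2 to 33.2). Vcan had 3 UMIs, all in cell 246, a ratio 28.5-fold lower (9.15 to 144). Ptprz1 had 2, in cells 234 and 249 (88.5-fold lower, 23.8 to 742), and Lhfpl3 had 1, in cell 246 (79.8-fold lower, 13.5 to 3226). Pdgfra had 1 UMI, in cell 234, which gave a ratio 148-fold lower with a wide interval (25.7 to 5915). Cspg4 and C1ql1 had none among 90710 UMIs, which makes them at least 29.2-fold and at least 17.5-fold lower when 3 UMIs are taken as the limit that a count of 0 allows. On the fresh plate the same limit gave from at least 3.70-fold lower (C1ql1) to at least 21.9-fold lower (Gpr17), so that for fresh C1ql1 the depth could not show a 4-fold difference. Of the 7 genes, Gpr17 was thus the one with most counts left in oligodendrocytes, and most of these were in 1 cell.

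Oligodendrocyte 246 had 13 UMIs of Gpr17 and 30 of Sox10, but only 3 of Olig1 and 2 of Olig2 and none of Pdgfra. It also held 22 UMIs of Enpp6, 12 of Bcas1, 17 of Tcf7l2 and 21 of Fyn, genes of newly formed oligodendrocytes or their committed precursors. Bmp4 and Neu4, from the same list, were at 0. The cell had none of Mog, a late myelin gene, but the most UMIs of Mbp (186) and Myrf (19) among MeOH-fixed oligodendrocytes. Its 16 myelin genes took 5.97% of its UMIs, the lowest share among the MeOH-fixed oligodendrocytes, whose median was 11.2% and highest 14.4%. Cell 228 was partly alike, with 4 UMIs of Gpr17, 8 of Tcf7l2, 5 of Fyn, 1 of Enpp6, 1 of Mog and a myelin share of 7.30%.

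To show the sequence in front of genes that were and were not kept in oligodendrocytes, the stretches upstream of the RefSeq starts (GRCm38.p6) are given for 2 genes that were not kept, Pdgfra (chr5:75152001-75152250, plus strand) and Lhfpl3 (chr5:22745804-22746053, plus strand), and for the kept gene Olig2 (chr16:91225300-91225456, plus strand, up to the annotated transcript). Capitals mark matches to CAGCTG, an E-box, or CATCTG, an E-box of the kind bound by bHLH factors such as OLIG2. Cspg4, Vcan and Ptprz1, which were not kept either, had no such match and are not printed. The stretch of Olig2 is shorter, so that the stretches do not compare kept genes with the others.
Pdgfra: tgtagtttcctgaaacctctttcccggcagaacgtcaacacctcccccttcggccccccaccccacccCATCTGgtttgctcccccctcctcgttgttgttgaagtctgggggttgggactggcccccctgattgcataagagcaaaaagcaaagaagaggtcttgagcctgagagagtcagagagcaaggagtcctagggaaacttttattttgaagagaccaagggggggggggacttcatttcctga
Lhfpl3: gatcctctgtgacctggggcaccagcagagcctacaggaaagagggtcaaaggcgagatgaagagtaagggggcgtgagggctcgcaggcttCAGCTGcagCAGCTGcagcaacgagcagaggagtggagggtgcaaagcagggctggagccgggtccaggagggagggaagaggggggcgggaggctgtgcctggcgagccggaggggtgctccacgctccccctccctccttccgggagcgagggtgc
Olig2: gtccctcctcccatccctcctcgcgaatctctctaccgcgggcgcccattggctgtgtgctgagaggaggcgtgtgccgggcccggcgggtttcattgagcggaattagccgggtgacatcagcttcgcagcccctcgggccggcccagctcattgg

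A search of both strands of the 250 bases before the start used 4 motifs, the E-boxes CAGCTG (its own reverse) and CATCTG (reverse CAGATG) and the SOX-type motifs AACAAAG (reverse CTTTGTT) and AACAAT (reverse ATTGTT). Promoter sequences were matched for 6 of the 10 genes, and Olig1, Sox10, Gpr17 and C1ql1 were not matched. Pdgfra had 1 CATCTG that began 182 bases before the start, and Lhfpl3 had 2 CAGCTG that began 158 and 149 bases before it. Olig2 had 1 ATTGTT that began 67 bases before the RefSeq start, which lies past the end of the stretch printed above and inside the annotated transcript. Cspg4, Vcan and Ptprz1 had none of the 4 motifs in this window. At least 1 motif was thus present in 3 of 6 genes, against 35.9% of all 32851 promoters (13.0% for CAGCTG, 14.4% for CATCTG, 5.03% for AACAAAG and 9.42% for AACAAT). These matches are letters in a window and were not measured as binding sites.

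Within OPCs, cells differed in which of the 10 genes they held. Fresh OPCs had 7 to 10 of the genes (median 10), and MeOH-fixed OPCs had 4 to 10 (median 8.5). After thinning to 800 UMIs per cell, the medians were 7 and 6.5. Oligodendrocytes had 2 and 3 of the genes in the fresh cells and 3 to 6 (median 3) in the MeOH-fixed cells.

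Pdgfra was at 0 in 4 of the 15 OPCs, fresh cell 288 and MeOH-fixed cells 138, 199 and 266. This split was made after the values were seen, and it is given as a description only. Cell 288 had 25296 UMIs, where a count of 0 allows up to 119 CPM, while the other 4 fresh OPCs together had 4543 CPM of Pdgfra. For cells 138, 199 and 266 the limits were 685, 322 and 1391 CPM, and the other 7 MeOH-fixed OPCs together had 2470 CPM. The limit was below the level of the other OPCs in each of the 4 cells, and closest to it in cell 266.

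The same 4 cells held little of Cspg4 (2 UMIs in 41161, against 70 in 55859 in the 11 others), C1ql1 (3 against 47) and Lhfpl3 (4 against 76). Ptprz1 was at 389 CPM in them and at 2542 CPM in the others, and Olig1 at 1239 CPM and 4440 CPM. Olig2 (1190 CPM and 1396 CPM) and Sox10 (2332 CPM and 2291 CPM) lay close together. Gpr17 was at 4324 CPM in the 4 cells and at 2667 CPM in the 11 others, and its single cells overlapped, from 464 to 6432 CPM and from 487 to 8666 CPM. The 4 cells were not alike. Cell 266 held only 8 UMIs of the 10 genes, with 1 of Gpr17 and 0 of Olig2 and Ptprz1. Its 3709 CPM of the 10 genes lay below the 3903 CPM of MeOH-fixed oligodendrocytes.

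Genes outside the list moved with this split. The 16 myelin genes took 1.23 to 4.76% of the UMIs in the 4 OPCs without Pdgfra and 0.0466 to 0.401% in the 11 others, with no overlap. In oligodendrocytes they took 10.6 to 11.1% (fresh) and 5.97 to 14.4% (MeOH-fixed). Enpp6, an enzyme of newly forming oligodendrocytes, had 62 UMIs in the 4 cells, 58 of them in cell 288, and 0 in the 11 others. Myrf, the transcription factor that turns on myelin genes, had 26 UMIs in 3 of the 4 cells and 0 in the 11 others. Bcas1 (2624 CPM and 537 CPM), Fyn (3741 CPM and 698 CPM) and Tcf7l2 (705 CPM and 89.5 CPM) were also higher in the 4 cells. So were Sirt2 (7386 and 824 CPM) and Itpr2 (1288 and 448 CPM), while Lims2 was lower (340 and 430 CPM). Neu4 was higher over both plates (947 and 537 CPM) but lower among MeOH-fixed cells (567 and 683 CPM). Cell 288 held 25296 of the 41161 UMIs of the 4 cells, so that these pooled levels rest largely on it. Bmp4 was counted in cells 288 (33 UMIs) and 138 (14), and in 3 of the OPCs with Pdgfra as well, with 19 UMIs in cell 198. Doublets were not called, and their part in cells that hold myelin genes was not tested.

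**Figure D3:**
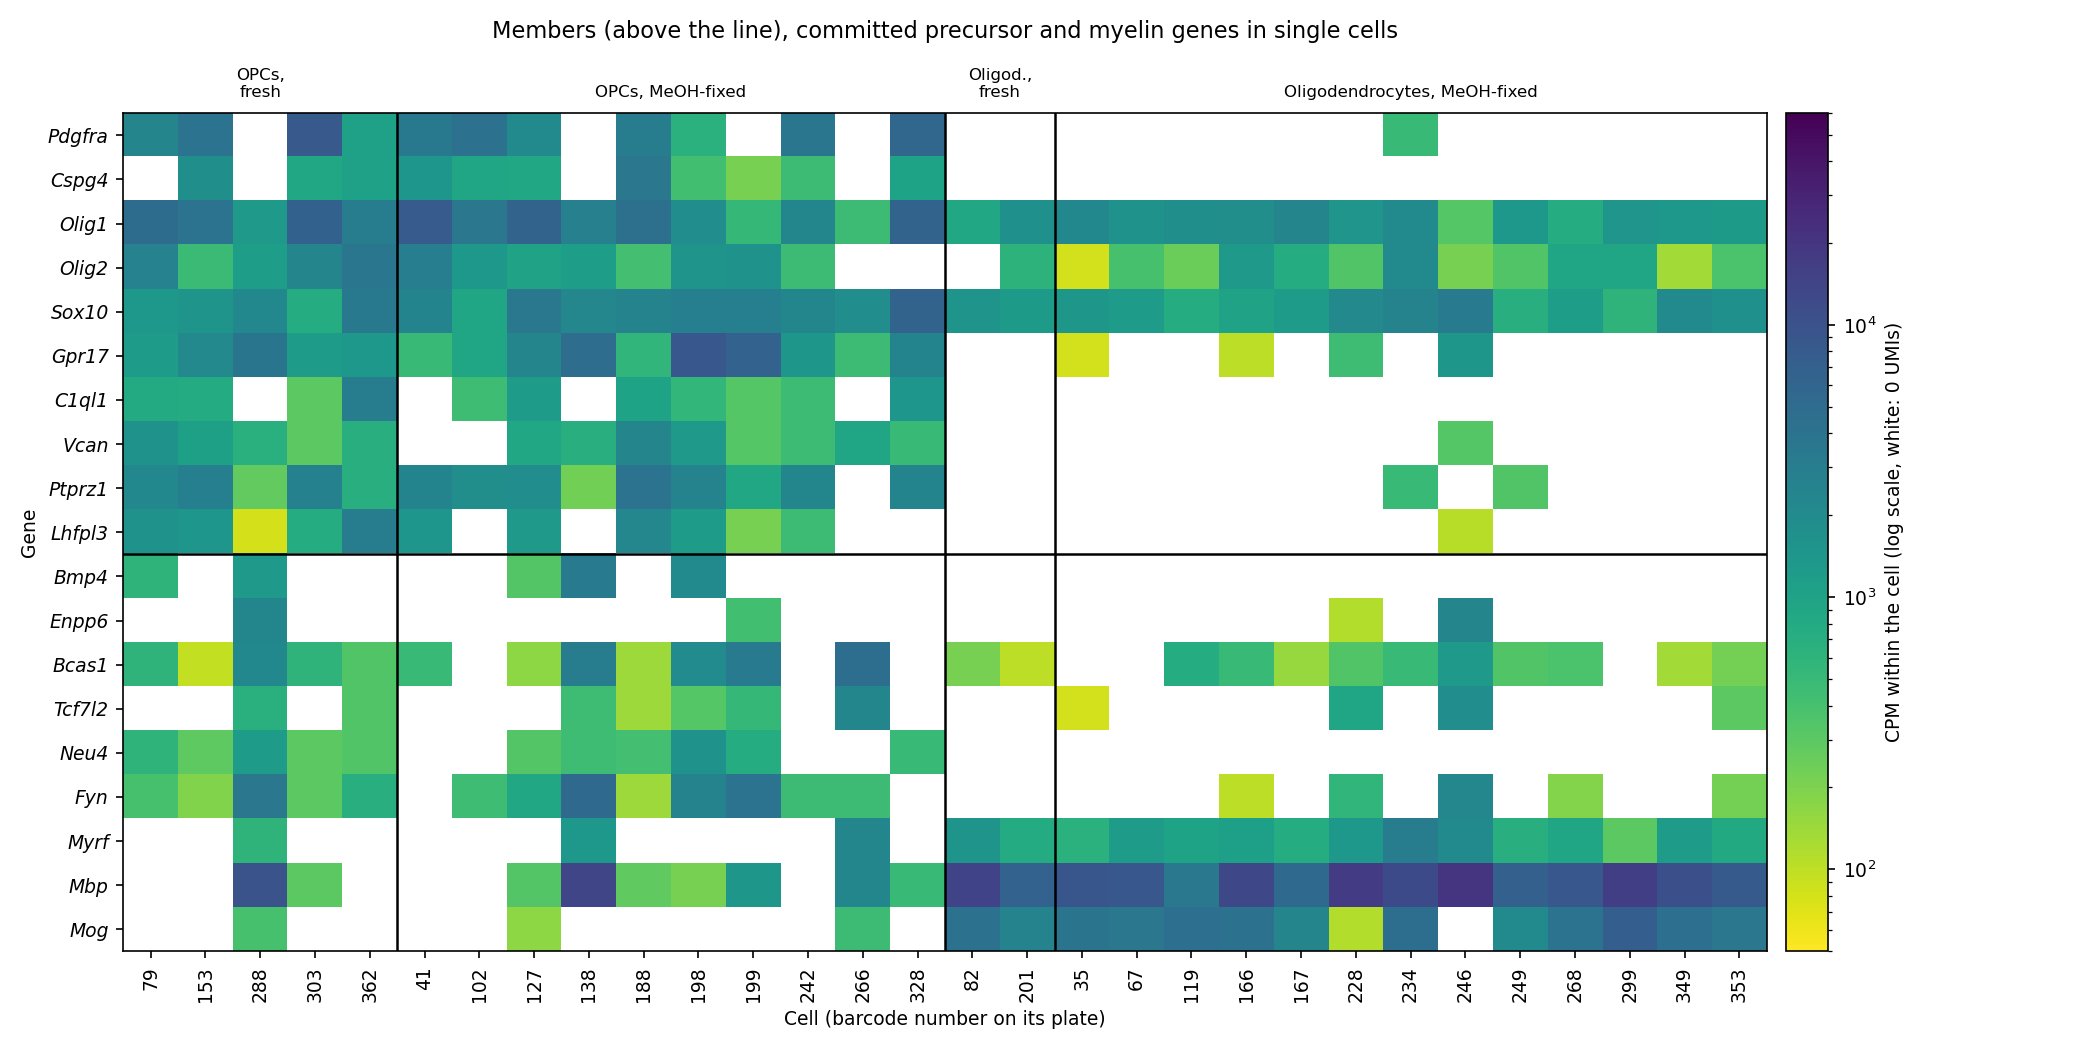
CPM of a gene within the cell (colour, log scale, white for 0 UMIs) in each OPC and oligodendrocyte of both plates, named by barcode number, for the 10 genes (above the line) and for committed precursor and myelin genes (below it). Fresh OPC 288 and MeOH-fixed OPCs 138, 199 and 266 have no Pdgfra and have Mbp. Of the 11 OPCs with Pdgfra, 5 also have Mbp, with at most 2 UMIs each. MeOH-fixed oligodendrocyte 246 has Gpr17 and Enpp6, as has cell 228 with fewer UMIs (4 and 1).

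**Figure D4:**
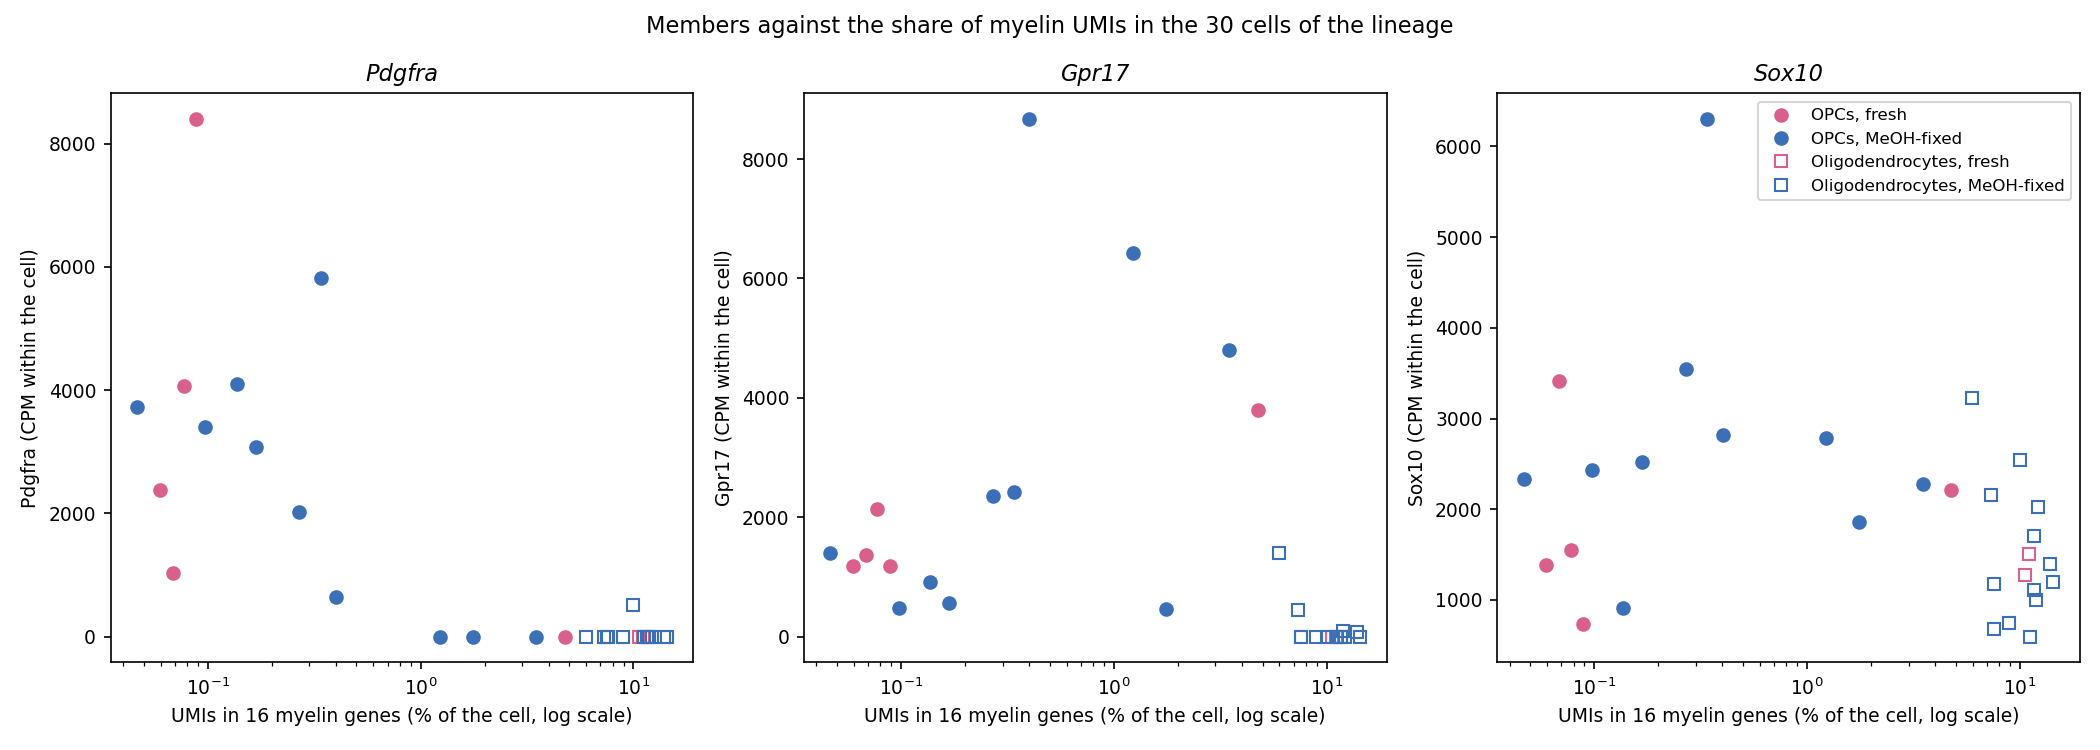
Pdgfra, Gpr17 and Sox10 (CPM within the cell) against the share of UMIs in 16 myelin genes (%, log scale) in each OPC (filled circles) and oligodendrocyte (open squares). Pdgfra is at 0 in the 4 OPCs with at least 1.23% myelin UMIs. Gpr17 is present in all 4, with 1 UMI in cell 266, and Sox10 is present in every cell.

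Genes of the same pathway were taken from lists and read as counts in MeOH-fixed oligodendrocytes over OPCs, with the same limits of 20 UMIs and 4-fold. Of 12 genes of committed precursors 10 could be read, of which 5 were lower in oligodendrocytes (Fyn, Itpr2, Bcas1, Bmp4 and Neu4) and 0 higher, against 7.8% and 17.5% of all genes. Fyn, a kinase of early myelination, fell from 1994 to 342 CPM, and Bmp4, a growth factor of this stage, from 751 CPM to 0 of 90710 UMIs. Of 16 myelin genes 15 were higher and 1, Fa2h, was not past the limit (558 CPM in OPCs and 1213 CPM in oligodendrocytes). Of 18 other transcription factors of the lineage 5 could be read, with Sox2 and Sox6 lower and Myrf higher. Sox6, which holds precursors in an immature state, had 40 and 39 UMIs in fresh and MeOH-fixed OPCs and 0 in both groups of oligodendrocytes. Of 14 proteoglycans with their partners and ligands 6 could be read, of which 3 were lower (Cspg5, Tnr and Sdc3) and 0 higher. Of 14 further precursor genes 5 could be read, of which 3 were lower (Luzp2, Scrg1 and Pcdh15) and 0 higher.

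The other PDGF genes were too low for a comparison. Pdgfa, the ligand of PDGFRA, had 7 and 5 UMIs in fresh and MeOH-fixed OPCs and 1 and 7 in oligodendrocytes, and Pdgfrb, the receptor of mural cells, had 0 in all 4 groups. Of 16 relatives of the 10 genes in the same protein families, 14 were in the counts and 1, Bcan, could be read (1072 CPM in MeOH-fixed OPCs and 419 CPM in oligodendrocytes). Of 7 cell cycle genes, Mki67, Top2a, Cdk1 and Ccnb1 had 0 UMIs in all OPCs and oligodendrocytes. Birc5 had 1 UMI in MeOH-fixed OPCs, and Cenpf had 1 in MeOH-fixed oligodendrocytes. Ccnd1, a cyclin of the G1 phase, had 27 UMIs in fresh and 8 in MeOH-fixed OPCs.

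Across the 16 groups of identity and plate, genes were ranked by the correlation of their log2(CPM + 10) with that of 3 of the 10 genes, among 5089 genes with at least 50 UMIs, with the 10 genes themselves left out of the ranking. The groups share plates and differ in depth, so that the coefficients only describe likeness. Of these genes, most like Pdgfra were Neu4 (r = 0.98) and Pcdh15 (0.94), both without a UMI in oligodendrocytes, and then Ust (0.86), Os9 (0.84) and Bcas1 (0.83). Most like Gpr17 were 9630013A20Rik (0.92), Bcas1 (0.91), Neu4 (0.91), Pcdh15 (0.89) and Slc22a23 (0.89). Among the 5 genes most like Sox10 were the myelin gene Cnp (0.91), then Plxnb3 (0.87), Dnm3 (0.85) and Fa2h (0.85). Within the 10 genes, Pdgfra was most like Lhfpl3 (0.94) and Gpr17 (0.92), Gpr17 was most like Pdgfra, and Sox10 was most like Olig1 (0.90) and least like Cspg4 (0.26).

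MeOH-fixed OPCs were compared with fresh OPCs, a difference between plates in which fixation, pool and gating cannot be told apart. None of the 10 genes differed by more than 2-fold between the plates, where 14.9% of 805 genes with at least 20 UMIs were more than 2-fold lower and 14.4% more than 2-fold higher in MeOH-fixed OPCs. Their median log2 ratio was 0.30, against 0.03 over all genes, and their sum had a log2 ratio of 0.25 (0.10 to 0.39). Pdgfra was lower in MeOH-fixed OPCs by a log2 ratio of -0.47 (-0.91 to -0.04). Cspg4 (0.85, 0.13 to 1.59), Gpr17 (0.60, 0.28 to 0.93), Sox10 (0.58, 0.19 to 0.98) and Ptprz1 (0.55, 0.08 to 1.03) were higher by log2 ratios whose counting intervals excluded 0. For Olig1 (0.02), Olig2 (-0.37), C1ql1 (0.34), Vcan (0.25) and Lhfpl3 (0.18) the intervals included 0.

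These values rested to a large part on fresh OPC 288. Without it, the sum had a log2 ratio of -0.22 and the ratio of MeOH-fixed to fresh CPM was 0.359 for Pdgfra and 2.57 for Gpr17, so that 1 gene was more than 2-fold lower and 1 more than 2-fold higher, against 12.1% and 21.1% of all genes. Of the other ratios, 5 turned from above to below 1, those of Cspg4 (0.897 without the cell, 1.80 with it), Ptprz1 (0.816 and 1.47), C1ql1 (0.632 and 1.27), Lhfpl3 (0.596 and 1.14) and Olig1 (0.645 and 1.02). Sox10 remained higher (1.84 and 1.49), Vcan was at 1.03 in place of 1.19 and Olig2 at 0.634 in place of 0.774. The MeOH-fixed OPCs still included 3 cells without Pdgfra in this comparison, while the fresh OPCs no longer included any. The myelin genes showed the weight of the same cell, with 1203 of their 1222 UMIs in fresh OPCs, and 5 of the 8 myelin genes that could be read were more than 2-fold lower in MeOH-fixed OPCs.

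**Figure D5:**
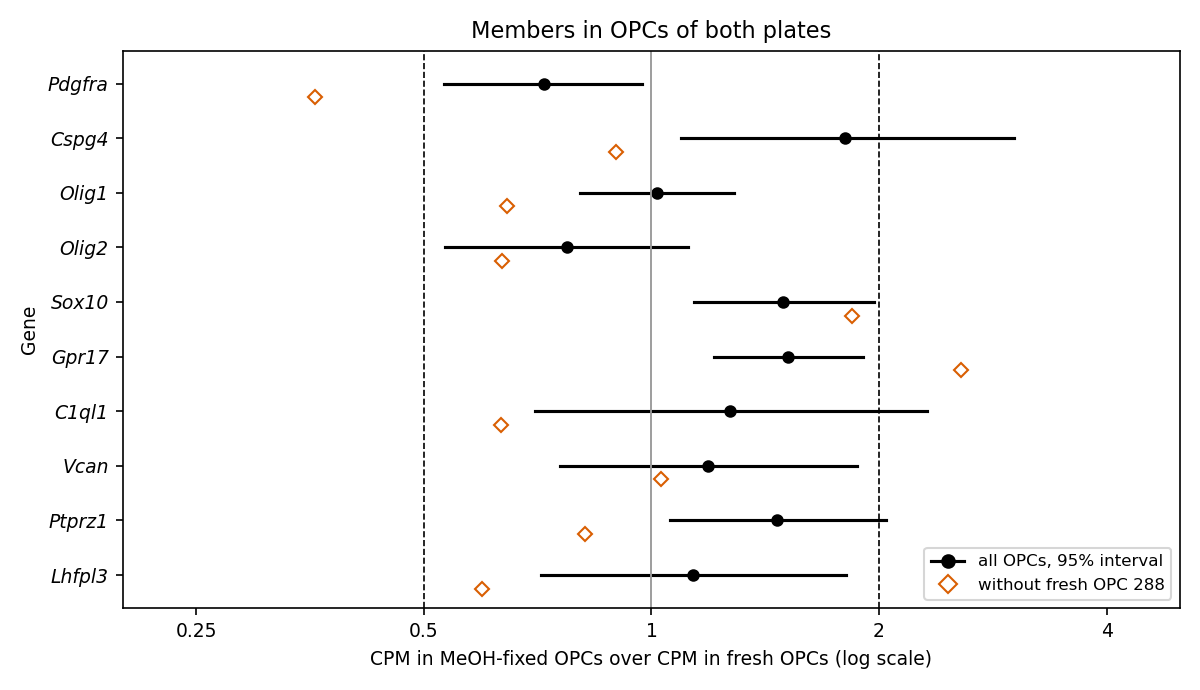
CPM in MeOH-fixed OPCs over CPM in fresh OPCs (log scale) for the 10 genes, with exact 95% intervals (filled circles) and without fresh OPC 288 (open diamonds). Dashed lines mark 2-fold. With all cells each gene lies between the lines, and without the cell Pdgfra lies at 0.359 and Gpr17 at 2.57.

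In oligodendrocytes only Olig1, Olig2 and Sox10 had enough UMIs to compare the plates, and none of the 3 differed by more than 2-fold, where 8.87% of 924 genes were more than 2-fold lower and 22.8% higher. The log2 ratios of MeOH-fixed to fresh were -0.06 for Olig1 (-0.59 to 0.50), 0.04 for Olig2 (-0.90 to 1.09) and 0.29 for Sox10 (-0.27 to 0.89). Their intervals all included 0 and were wide, with 2 fresh cells behind them. Gpr17 had 19 UMIs in MeOH-fixed and 0 of 24310 UMIs in fresh oligodendrocytes, which allows up to 123 CPM against 209 CPM (126 to 327). That difference rested on cell 246, as given above.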

How the data were processed

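Per the labels and the study's methods, the authors sorted single cells for SORT-seq, mapped reads to GRCm38 with STAR, discarded reads with several equally good places, and clustered filtered cells with Seurat 4.1.0 in R 4.2.0. The deposited values are expected counts, in which the UMIs seen were corrected for molecules with the same tag (4096 tags possible). Here the adjustment was inverted, which gave whole UMIs (largest distance from a whole number 3.64e-12). The percentage of mitochondrial counts per cell and the cell identities were deposited by the authors and used as given. Every count column named its plate.

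UMIs were summed by identity and plate and divided by the total (CPM). The 2 conditions have 1 library each (534122 and 729018 UMIs in filtered cells), so that no test was made. Intervals at 95% are exact (Poisson for levels, Clopper-Pearson for shares, conditional binomial for ratios) and cover counting error only. Genes with at least 20 UMIs over both groups served as background, and a gene at 0 in 1 group counted as lower in it. Shares of cells were also taken after thinning to 800 UMIs without replacement. Doublets were not called. Gene positions are from GENCODE vM21 and promoters from RefSeq. The ratios across genes were also run on simulated Poisson counts with known ratios. There each gene had the same rate in all cells of a group. The simulation thus covers counting error only and not differences between cells, such as those of OPC 288.

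The 10 genes and all gene lists were chosen with earlier results of these data known. All 10 genes are named, lists are given as counts with up to 5 examples, and the cells singled out were chosen after their values were seen. A gene that meets these rules is not reported here. Of the alternatives, 51 were planned and 13 were added after seeing the data. All steps ran in Python 3.11.15 (scipy 1.17.1, pandas 2.3.3, numpy 2.4.6, matplotlib 3.10.9).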

Additional observations from a re-analysis of the deposited data

Results flagged for a closer look

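Barcodes that failed the filtering were outside the comparisons above and still held UMIs of the oligodendrocyte precursor genes. On the fresh plate, 320 such barcodes held 88 UMIs of the 10 genes, 7.53% of those on the plate (exact 95% interval 6.08 to 9.19%), at 628 CPM. These UMIs were spread over 65 barcodes, none of which held more than 2 of the genes. On the MeOH-fixed plate, 252 such barcodes held 51 UMIs, 3.36% of those on the plate (2.51 to 4.40%), at 610 CPM, spread over 39 barcodes. Barcode 106 was the 1 that held 3 of the genes (Pdgfra, Olig1 and Sox10, 1 UMI each), with 500 UMIs and 196 genes in all. Both levels lay far below those of OPCs and above those of fresh microglia and neurons. Per the study's methods 8 wells of the MeOH-fixed plate held no cell, as a control without template. Which barcodes belong to them is not given in the sources used here, so that they were not set apart from the failed barcodes and no background from empty wells was computed. For the fresh plate empty wells are not described. Neither count was therefore compared with a background level, and the source of these UMIs was not tested.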

How the results depend on the processing

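OPCs were highest in 18 to 20 of the 20 pairs of gene and plate under every alternative run. The genes kept in oligodendrocytes were Olig1, Olig2 and Sox10 under each alternative but 3. With 0.5 in place of 0.25 as the limit the count was 1 (Sox10), with cells thinned to 800 UMIs it was 2 (Olig1 and Sox10), and by the share of thinned cells with a UMI it was 4, with Lhfpl3 added. The share of the UMIs of the 10 genes in MeOH-fixed OPCs, 57.5%, was 60.3% without cells above 25% mitochondrial counts (26 of 196 cells, 0 of them in the lineage) and 71.6% with identities weighted equally. The fresh share, 71.0%, was also 71.6% with that weighting, so that the plates then did not differ in this share.

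The summed log2 ratio of MeOH-fixed to fresh OPCs, 0.25, turned to -0.11 with means of single-cell CPM, -0.10 with thinned cells, -0.29 without the cell with the highest count, -0.13 without the cell with the highest total and -0.22 without fresh OPC 288. Of the ratios of single genes in OPCs, those of Olig2, Sox10 and Gpr17 stayed on their side of 1 under each alternative run. Pdgfra turned to 1.05 without the highest count (0.720 in the report), and Cspg4 to 0.897 without cell 288. Ptprz1 turned to 0.5 with thinned cells, 0.931 without the highest total and 0.816 without cell 288. C1ql1, Lhfpl3, Vcan and Olig1, whose intervals included 1, also turned, to 0.5 to 0.702 (C1ql1), 0.333 to 0.709 (Lhfpl3), 0.746 to 0.861 (Vcan) and 0.645 to 0.904 (Olig1), under 3 or 4 alternatives each. In oligodendrocytes, where all 3 intervals included 1, Olig1 turned to 1.17 to 1.79, Olig2 to 0.931 and Sox10 to 0.944. In place of 0 genes more than 2-fold lower there was 1 with means of single-cell CPM and with thinned cells (Lhfpl3) and without the highest total or cell 288 (Pdgfra). In place of 0 genes more than 2-fold higher there was 1 with thinned cells, without the highest total and without cell 288 (Gpr17), and without the highest count (Cspg4). In oligodendrocytes the summed log2 ratio, 0.21, was 0.65 without the highest count and 0.76 without the highest total. Of all genes, 9.14% were more than 2-fold higher in MeOH-fixed OPCs with at least 50 UMIs in place of 20, and 13.6% more than 2-fold lower in MeOH-fixed oligodendrocytes with at least 10. The cause of these changes was not tested, beyond the cells left out.

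Of the values that answer a comparison 81 stayed, 15 moved and 5 reversed under the alternatives, and of those of single genes 157 stayed, 39 moved and 5 reversed (a change of direction was counted as reversed only where the counting interval excluded equality). No paired analysis was possible because there is 1 library per condition, and no library could be left out for the same reason. Few cells of the lineage, 2 to 13 per group, stand behind each value, and thinned counts of most genes are close to 1 UMI per cell.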

Other observations

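Beyond the genes described above, several cells outside the lineage held more than single UMIs of the oligodendrocyte precursor genes. Fresh astrocyte-group cell 108 held 5 UMIs of Olig2 in 1534 UMIs, with 66 UMIs of astrocyte markers and 1 of oligodendrocyte markers. MeOH-fixed astrocyte-group cell 110 held 7 of Olig1 in 1661 UMIs. MeOH-fixed progenitor or neuroblast 340 held 6 of Sox10, 2 of Olig1 and 1 of Cspg4. MeOH-fixed progenitor or neuroblast 224 held 17 of the 26 Ptprz1 UMIs of its group. These cells were chosen after their values were seen, and no explanation was tested.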
